A study of Mus musculus with 15 samples.

Results

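The mitochondrial respiratory chain and ATP synthase were followed in green fluorescent cells sorted from newborn mouse kidneys on 5 consecutive postnatal days, P0 to P4. Members were chosen by gene symbol and not by any measured value. They are the genes named with a single symbol that starts with Nduf, Uqcr or Atp5, the genes Sdha to Sdhd, Cyc1 and Cycs, and the Cox4 to Cox8 genes with a letter suffix. This gave 91 of the 19938 genes named on the array, of which 34 belong to complex I, 4 to complex II, 9 to complex III, 19 to complex IV and 17 to complex V. A further 7 are assembly factors of complex I, and 1 is cytochrome c. Ndufa4 and Ndufa4l2, named for complex I, were placed with complex IV, where the Ndufa4 protein is now known to sit. Each gene is represented by the probe set with the highest mean over all arrays.

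All mice were of the CD-1 strain and carried Tg(Crym-EGFP), a bacterial artificial chromosome that places enhanced green fluorescent protein under Crym sequence, and the pups were nursed by foster mothers from E18.5. Renal vesicle, the earliest epithelium of the nephron, is the label of the 3 samples taken at P4. The 12 samples of P0, P1, P2 and P3, with 3 a day, are labelled cap mesenchyme, the progenitors that surround the ureteric bud tips. Each was a pool of about 4 kidneys, of unknown sex. The design text names cap mesenchyme on every day, so label and age change together at P4 and cannot be told apart. The reporter marks cells by Crym activity alone, and no gate that would part vesicle from progenitor cells is given. Whether pools of the same day stem from different litters is not stated, and all p-values measure only the spread between these samples.

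Complexes I, III and IV pass electrons to oxygen and pump protons out of the mitochondrial matrix, complex II feeds electrons from succinate without pumping, and complex V, the ATP synthase, makes ATP as protons flow back. Nearly all of their subunits come from nuclear genes, and a few core subunits from the mitochondrial genome. In the kidney the chain is best known from the proximal tubule, whose transport work depends on it, whereas nephron progenitors are known for a large part played by glycolysis.

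Many respiratory chain genes of mammals carry sites for nuclear respiratory factor 1 (NRF1) and for ETS factors of the GABP type close to their start. Of the 91 members, 74 had a promoter in the RefSeq table (GRCm38.p6), taken as the 250 bases before and the 50 bases after each start. An NRF1 motif, spelled as the letters GCGC, any 1 base and TGCGC, was found on either strand in 18 of these 74 genes (24.3%). Among genes kept for testing 11.2% held it, and among all genes with a RefSeq promoter 5.19%. The letters CCGGAAG, an ETS motif, were also found in 18 genes (24.3%), against 19.3% of genes kept for testing and 9.93% of all genes. A match here is a description of letters and not a bound site. The 150 bases before the start are shown for 4 members with the NRF1 letters and for Cox7a2l and Cox6b2, the members on which the day comparisons below turn, with matches to either motif on either strand in capitals. In Cox6a1 the last capitals are the ETS letters read on the opposite strand, and all other capitals are NRF1 letters.
Sdha, chr13:74350241-74350390, minus strand: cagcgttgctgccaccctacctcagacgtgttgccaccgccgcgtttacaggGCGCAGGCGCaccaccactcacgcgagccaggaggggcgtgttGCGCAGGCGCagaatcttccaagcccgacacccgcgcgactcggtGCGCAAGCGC
Ndufa11, chr17:56717612-56717761, plus strand: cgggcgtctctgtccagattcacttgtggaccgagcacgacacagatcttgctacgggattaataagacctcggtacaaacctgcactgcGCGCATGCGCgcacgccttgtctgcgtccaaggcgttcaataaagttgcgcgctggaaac
Cox6a1, chr5:115348959-115349108, minus strand: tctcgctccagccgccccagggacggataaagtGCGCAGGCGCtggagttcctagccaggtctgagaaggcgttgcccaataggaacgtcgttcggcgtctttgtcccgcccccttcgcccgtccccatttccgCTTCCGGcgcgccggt
Atp5k, chr5:108434400-108434549, minus strand: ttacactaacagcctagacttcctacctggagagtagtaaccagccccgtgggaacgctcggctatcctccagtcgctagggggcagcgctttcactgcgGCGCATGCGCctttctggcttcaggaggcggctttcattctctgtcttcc
Cox7a2l, chr17:83514334-83514483, minus strand: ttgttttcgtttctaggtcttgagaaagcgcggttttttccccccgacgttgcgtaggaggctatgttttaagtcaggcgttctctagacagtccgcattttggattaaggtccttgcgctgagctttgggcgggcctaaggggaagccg
Cox6b2, chr7:4753095-4753244, minus strand: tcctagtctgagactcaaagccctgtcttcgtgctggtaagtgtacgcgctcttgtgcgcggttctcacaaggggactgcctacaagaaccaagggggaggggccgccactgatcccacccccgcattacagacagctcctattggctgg

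The array values are on a log2 scale, and a gene was tested where it lay above the median of all values (6.86) in at least 3 arrays, which kept 11885 genes and 87 members. The other 4 members, Cox7a1, Cox7b2, Cox8b and Ndufa4l2, are isoforms of complex IV subunits and are described with the isoforms below. The labels were checked on marker genes. Crym averaged 7.80 in P4 and 11.37 in cap mesenchyme samples, and Six2, a progenitor transcription factor, 8.44 and 10.59. Of 9 tested cap mesenchyme markers 8 fell in P4 (2.32% of all genes did), and of 9 renal vesicle markers 7 rose (3.41%). Part of this shift came before P4. In the slope from P0 to P3, 5 of the cap mesenchyme markers fell and 6 of the renal vesicle markers rose. Of all genes 3.13% passed in this slope, in either direction. Of the 9 stroma markers tested 3 fell in it. The mean level of the vesicle markers was 9.35 to 9.94 in P4 and 7.57 to 9.70 in cap mesenchyme samples, so the groups overlapped. Lhx1, a transcription factor of the vesicle, averaged 10.25 in P4 and 8.09 in cap mesenchyme, but it had already reached 9.86 at P3. Of 8 proximal tubule markers 3 rose in P4, among them Lrp2, the endocytic receptor megalin, by 0.65. Ureteric bud markers rose for 2 of 6 and stroma markers fell for 3 of 9, and of the markers tested 0 of 1 endothelial, 0 of 3 erythroid, 0 of 2 macrophage and 0 of 6 muscle markers passed in P4. With the array set as a block, introduced below, 1 macrophage marker, Tyrobp, rose in P4 by 0.43 (limma adjusted p 0.0236), and Cd68, another, fell in the slope. The part of these cells in the member values was not tested. In such sorted pools fewer cells of a type and less RNA per cell cannot be told apart.

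Arrays fell into 2 sets, and the set difference was larger over the members than over all genes tested, as it was in other lists. The 5 first replicates, one from each day, had interquartile ranges of 2.14 to 2.27, against 2.52 to 2.77 in replicates 2 and 3. With the day in the model, 42.5% of all genes tested differed between the sets, 33.9% lower and 8.6% higher in the first replicates. Of the 87 members 47 were lower (54.0%) and 2 were higher, Uqcrfs1 and Cox5a. The median set difference was -0.24 over the members and -0.11 over all genes tested. Of the lists described below, mitochondrial ribosomal proteins had -0.37, and glycolysis genes and assembly factors -0.26 each. Cytosolic ribosomal proteins had -0.18, citric acid cycle genes -0.16, biogenesis regulators -0.13, side path genes -0.12 and the 2 mitochondrial genome genes 0.28. A difference of this size was thus not particular to the members. Atp5d, the delta subunit of the ATP synthase, read 8.68, 8.52, 8.93, 9.08 and 8.72 in the first replicates of P0 to P4, and every other array lay between 10.14 and 10.43. The sets did not overlap for this gene, with a difference of -1.45 (limma adjusted p 1.18e-08). Ndufa3 and Ndufs5, accessory subunits of complex I, differed by -1.23 and -1.17. In 27 members (31.0%) all 5 first replicates lay below all 10 other arrays, as they did in 12.1% of genes tested. After quantile normalization 40 members were lower and 8 higher, with 22.1% and 22.2% of all genes. The labels do not say what set the first replicates apart. Each comparison below was therefore also fitted with the array set as a block, which estimates the day differences within the sets.

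**Figure D1:**
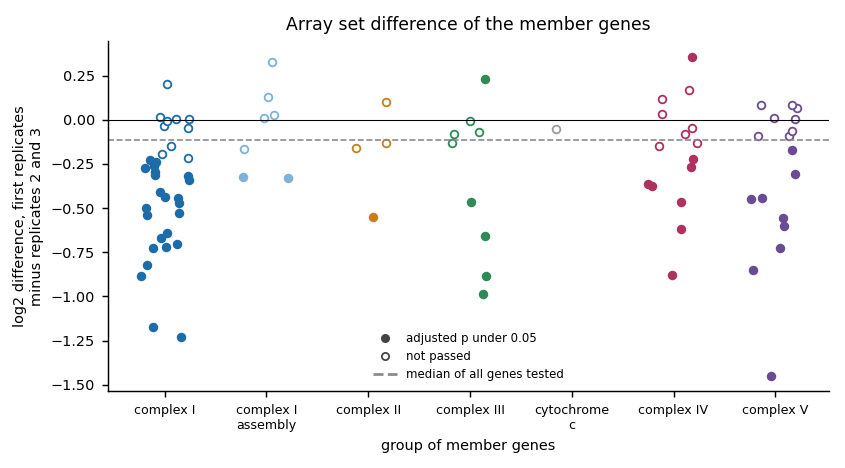
Each point is 1 of the 87 tested members, placed by group (horizontal) and by its log2 difference between the 5 first replicates and the 10 other arrays (vertical). Filled points pass an adjusted p of 0.05, and the dashed line is the median of all genes tested, -0.11; most filled points lie below it, down to Atp5d at -1.45.

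In the fit with no block no respiratory chain gene was called in any comparison of days, and with the array set blocked 2 fell in P4, Cox7a2l and Cox6b2, which are described under complex IV. With no block, no member passed an adjusted p of 0.05 in any of the 4 directional comparisons or in the F test over the 5 days. For P4 against the mean of P0 to P3 this was 0 of 87 members, where 5.73% of all genes passed, 3.41% higher and 2.32% lower. For the slope from P0 to P3 it was 0 of 87 (3.13% of all genes), for P4 against P3 0 (1.49%), for P3 against P0 0 (2.18%) and for any difference among the 5 days 0 (5.37%). At an unadjusted p under 0.05 the members numbered 1, 2, 0, 1 and 2 in the same order of comparisons (limma). The member differences of P4 from cap mesenchyme ran between -0.34 and 0.23 on the log2 scale. Of the 87, 61 were negative (70.1%) and 26 positive, while 49.1% of all genes tested were negative. Their median was -0.05, close to the 0.00 of all genes tested. It ranged from -0.13 without P4 replicate 2 to 0.04 without P4 replicate 1. Leaving out P4 replicate 1 removes the only first replicate of P4, and the median of all genes tested was then 0.03. Within the first replicates alone 52 members were negative (median -0.04), and within replicates 2 and 3 alone 57 (median -0.05). The sign was the same in both for 62 of 87. No member had its P4 samples all above or all below the cap mesenchyme samples, a pattern held by 2.38% (above) and 1.4% (below) of all genes tested. Between the lowest and the highest of the 5 day means lay a median of 0.20 over the members.

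How large a change these arrays could have missed is given by the 95% confidence intervals. With no block, the interval of P4 against cap mesenchyme lay within 1.5-fold either way for 67 of 87 members (77%, against 75.5% of all genes), and within 2-fold for 85. With the sets blocked, 85 members (97.7%, against 85.9% of all genes) lay within 1.5-fold and all 87 within 2-fold. The exceptions at 1.5-fold were Ndufaf1, with a lower bound of -0.61, and Ndufs5, with an upper bound of 0.64.

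**Figure D2:**
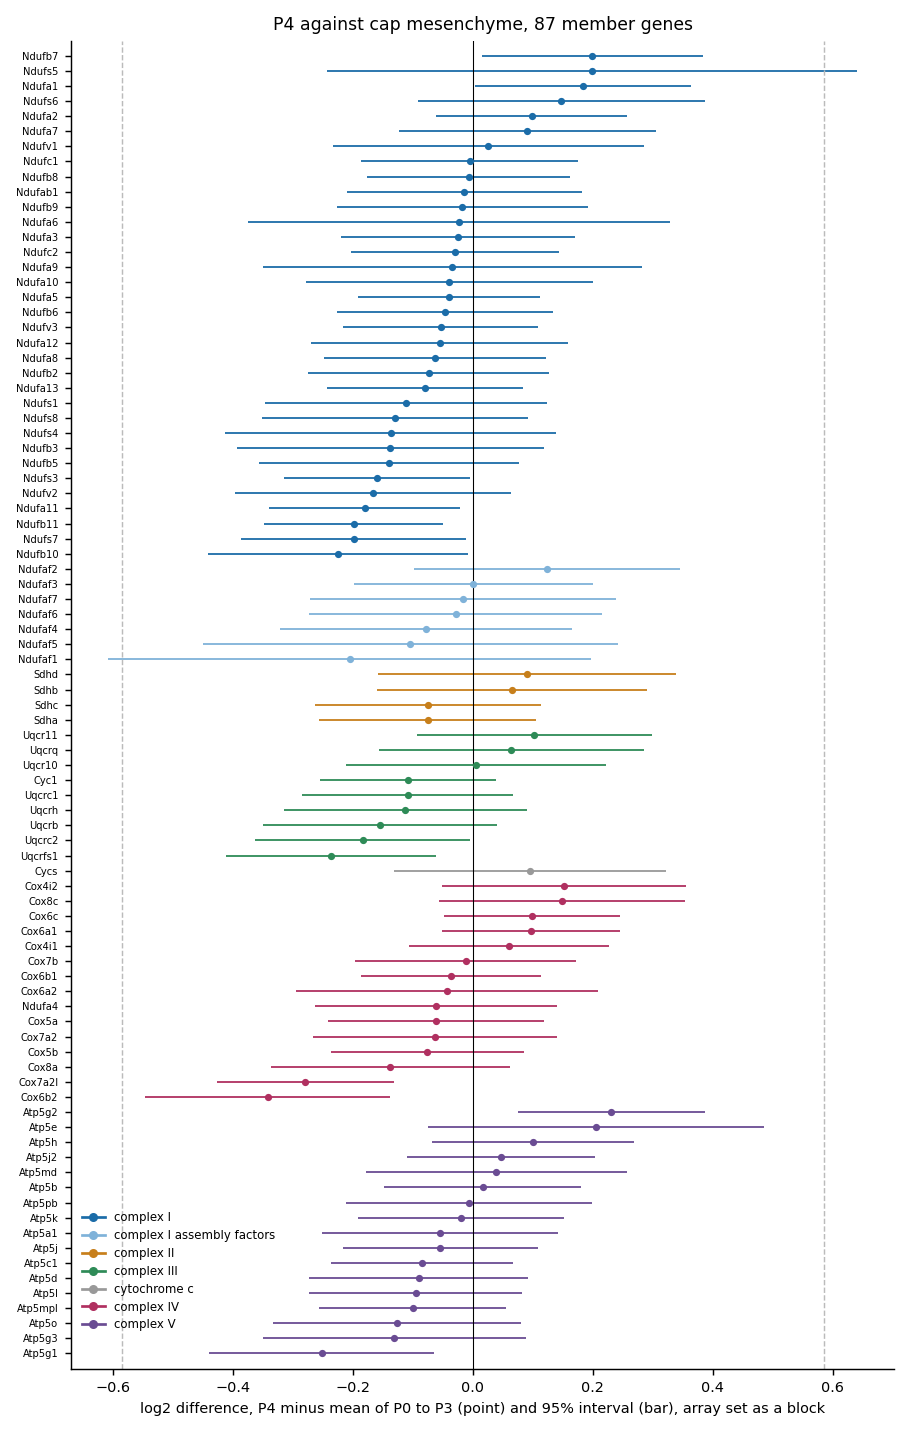
Points give the log2 difference of P4 from the mean of P0 to P3 for each of the 87 tested members, coloured by complex, and bars its 95% interval in the fit with blocked array sets. The dashed lines stand at 1.5-fold either way, and only the bars of Ndufaf1 and Ndufs5 cross them; Cox6b2 and Cox7a2l lie furthest to the left.

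A level for each complex was formed per sample as the mean over its tested genes of the log2 value minus that gene's own mean over all arrays. For all members together the level averaged 0.01 ± 0.24 at P0, 0.01 ± 0.19 at P1, 0.04 ± 0.20 at P2, -0.03 ± 0.13 at P3 and -0.03 ± 0.18 at P4 (SD, n = 3 each). The first replicates lay between -0.26 and -0.12 and the other arrays between -0.09 and 0.19, and the sets did not overlap. The level over all genes tested did not overlap either, at -0.13 to -0.06 in the first replicates and -0.04 to 0.08 in the others. Over replicates 2 and 3 alone the mean level of the members was 0.15, 0.12, 0.15, 0.01 and 0.07 from P0 to P4. The lowest of these arrays was P3 replicate 3. For all genes tested the same means were 0.06, 0.05, 0.05, 0.01 and 0.04, and P3 replicate 3 was again the lowest, at -0.04. A low P3 replicate 3 was thus not particular to the members.

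**Figure D3:**
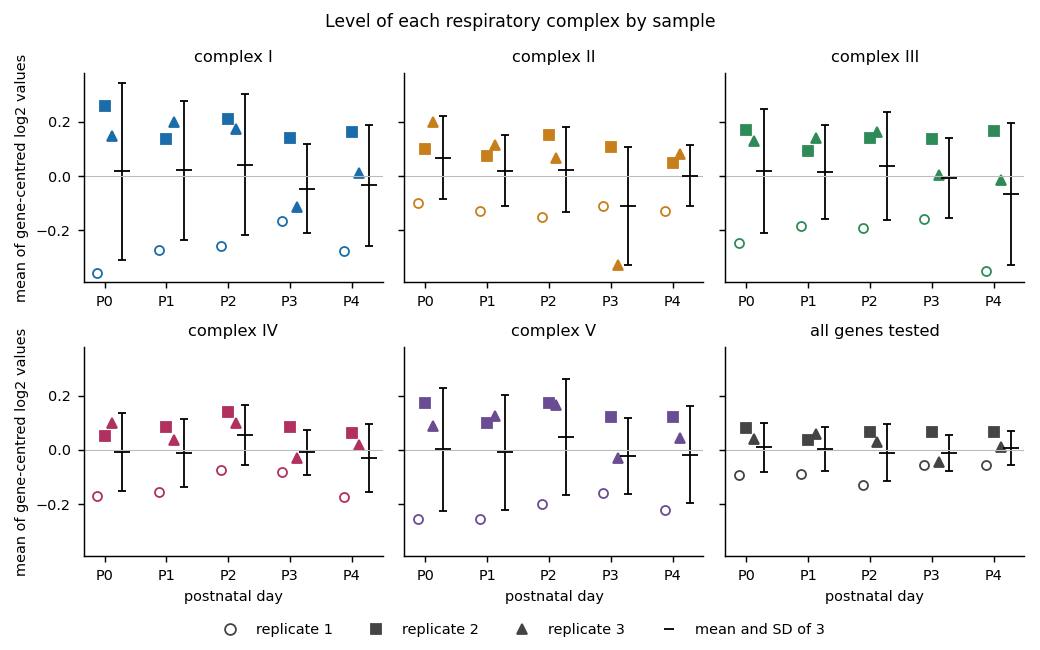
Each panel gives the level of a complex, or of all genes tested, by postnatal day (horizontal) as the mean of gene-centred log2 values (vertical), with a point per sample and the mean and SD of 3 beside them. The open circles, the first replicates, lie lowest on each day in complexes I, III, IV and V, and complex II of P3 replicate 3 is at -0.33.

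Complex I, the NADH dehydrogenase through which most electrons enter the chain, had a level of 0.02 ± 0.33, 0.02 ± 0.26, 0.04 ± 0.26, -0.05 ± 0.17 and -0.03 ± 0.22 from P0 to P4. None of its 34 genes passed in P4 against cap mesenchyme, with 27 negative and 7 positive and a median of -0.04. The lowest difference was that of Ndufb10, an accessory subunit of the membrane arm. It read 9.52, 10.07 and 9.76 in P4, against a lowest of 9.55, a median of 10.08 and a highest of 10.42 in cap mesenchyme, so the groups overlapped (-0.22, SE 0.18, limma adjusted p 0.736). Ndufb7, another accessory subunit, had the highest difference. It read 10.72, 11.47 and 11.30 in P4 and 10.36 to 11.33 in cap mesenchyme (0.20, SE 0.25, adjusted p 0.883). Ndufs3, a core subunit, had the smallest p of this complex in P4 and read 10.22, 10.18 and 10.10 in P4 and 10.21 to 10.40 in cap mesenchyme. Its difference of -0.16 (SE 0.08) did not pass either (limma adjusted p 0.386).

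Assembly factors of complex I, which are not part of the finished enzyme, gave the same count, 0 of 7. Ndufaf1, which acts in building the membrane arm, differed by -0.21 (SE 0.22, limma adjusted p 0.853) and Ndufaf2, a late-acting assembly factor, by 0.12 (SE 0.15, adjusted p 0.881). P3 replicate 3 stood low here. Ndufaf1 read 8.37 in it, against 9.73 and 9.23 in the other P3 samples, and Ndufaf5 read 8.08, against 9.02 in both.

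In complex II, succinate dehydrogenase, which also serves the citric acid cycle, the level was 0.07 ± 0.15, 0.02 ± 0.13, 0.02 ± 0.16, -0.11 ± 0.22 and 0.00 ± 0.11 from P0 to P4. Sdha, the flavoprotein subunit that oxidises succinate, read 10.19, 10.38 and 10.23 in P4 and 10.03 to 10.48 in cap mesenchyme. Sdhd, a membrane anchor, read 8.21, 7.86 and 8.28 in P4 and 7.50 to 8.24 in cap mesenchyme. Both overlapped, with differences of -0.08 and 0.09. All 4 subunits had a negative slope from P0 to P3 (-0.08 to -0.04 per day) and a positive difference of P4 from P3 (0.01 to 0.24), and none of these passed. P3 replicate 3 is the lowest P3 sample in each of them, with Sdhd at 7.50 there and at 8.03 and 8.10 in the other P3 samples. The complex II level of P3 was -0.11 in the first replicate, 0.11 in the second and -0.33 in the third.

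Complex III, which passes electrons from ubiquinol to cytochrome c, had the lowest median difference of P4 from cap mesenchyme among the complexes, -0.11 over 9 genes, with 6 negative. Its level was 0.02 ± 0.23, 0.02 ± 0.17, 0.04 ± 0.20, -0.01 ± 0.15 and -0.06 ± 0.26 from P0 to P4. Uqcrfs1, the Rieske iron-sulfur protein, read 9.55, 9.32 and 9.12 in P4 and a lowest of 9.14, a median of 9.60 and a highest of 9.79 in cap mesenchyme. One P4 sample lay below all cap mesenchyme samples. The difference of -0.24 (SE 0.11) had a limma adjusted p of 0.370 with no block. It was 0.082 with the array set blocked and 0.0477 with the replicate number blocked. Uqcrc2, a core protein, read 10.08, 10.24 and 9.88 in P4 and 10.00 to 10.39 in cap mesenchyme (-0.18, SE 0.09, adjusted p 0.406). Uqcr11, a small accessory subunit, had the highest difference, 0.10 (SE 0.32, adjusted p 0.973). Its unused second probe set gave 0.44.

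Cycs, cytochrome c, which carries electrons from complex III to complex IV, read 11.63, 11.86 and 11.53 in P4 and 11.29 to 11.78 in cap mesenchyme. Its day means were 11.45, 11.51, 11.65, 11.69 and 11.67 from P0 to P4, and neither the slope (0.09 per day, limma adjusted p 0.479) nor the P4 difference (0.10, adjusted p 0.874) passed.

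Complex IV, cytochrome c oxidase, held the 2 members that were called with the array set as a block. Its level was -0.01 ± 0.14, -0.01 ± 0.13, 0.06 ± 0.11, -0.01 ± 0.08 and -0.03 ± 0.13 from P0 to P4, and of its 15 tested genes 10 were negative in P4. Once the array set was blocked, Cox7a2l and Cox6b2 fell in P4 and no member rose, which is 2 of 87 members, where 11.5% of all genes passed, 6.41% higher and 5.06% lower. In that fit 1 member fell in the slope (7.72% of all genes passed), 0 passed in P4 against P3 (3.35%), 1 fell in P3 against P0 (6.02%, and 3.15% lower) and 2 passed in the F test (11.7%). Blocking the replicate number instead gave 3, 1, 0 and 1 members in the directional comparisons, against 12.1%, 8.49%, 3.55% and 6.48% of all genes. Replicates 2 and 3 alone gave 0, 1, 0 and 1, against 6.27%, 3.37%, 1.34% and 2.84%.

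Cox7a2l, also known as Scaf1, is related to the Cox7a subunits and is known for joining complexes III and IV in supercomplexes. It read 10.96, 10.77 and 10.73 in P4. The cap mesenchyme samples had a lowest value of 10.89, a median of 11.11 and a highest of 11.27. In P4, 2 of 3 samples lay below every cap mesenchyme sample. Day means were 11.20 ± 0.07, 11.14 ± 0.06, 11.06 ± 0.09, 10.98 ± 0.09 and 10.82 ± 0.12 from P0 to P4 (SD, n = 3 each), each below that of the day before. The P4 difference was -0.28 (SE 0.08, limma adjusted p 0.0743) in the plain fit and -0.28 (SE 0.07, adjusted p 0.0147) in the fit with the set blocked. In the blocked fit the call was lost without P4 replicate 2 (adjusted p 0.0644) or without P4 replicate 3 (0.0803). Within the first replicates the difference was -0.21 and within replicates 2 and 3 -0.32 (adjusted p 0.104). The slope from P0 to P3, -0.08 per day, did not pass in either fit. The second, unused probe set of this gene gave a smaller difference of -0.10.

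Cox6b2 is the isoform of the Cox6b subunit that is chiefly known from testis. It read 8.49, 8.87 and 9.04 in P4, against a lowest of 8.55, a median of 9.20 and a highest of 9.63 in cap mesenchyme, and the groups overlapped with 1 P4 sample below all others. By day the samples read 9.13, 9.63 and 9.59 at P0, 8.63, 9.49 and 9.35 at P1, 9.03, 9.32 and 9.26 at P2, and 8.55, 9.03 and 8.72 at P3. In each replicate number P3 was lower than P0. The slope from P0 to P3 was -0.20 per day, with a limma adjusted p of 0.196 with no block and of 0.00386 with the sets blocked, where 3.9% of all genes fell. Within replicates 2 and 3 it passed as well, at -0.23 per day (adjusted p 0.02). This slope was called in the blocked fit when any of the 15 samples was left out (adjusted p between 0.00161 and 0.0176). The P3 difference from P0, -0.69, had an adjusted p of 0.183 with no block and of 0.00263 with the block. The P4 difference of -0.34 from cap mesenchyme was called in the blocked fit only with all 3 P4 samples present (adjusted p 0.0298 with all, and 0.115, 0.153 and 0.0531 without P4 replicate 1, 2 or 3). Its difference of P4 from P3 was 0.04 (SE 0.22, adjusted p 1). Cox6b1, the widely expressed isoform, had day means of 12.28, 12.25, 12.31, 12.27 and 12.24 from P0 to P4, a range of 0.07.

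**Figure D4:**
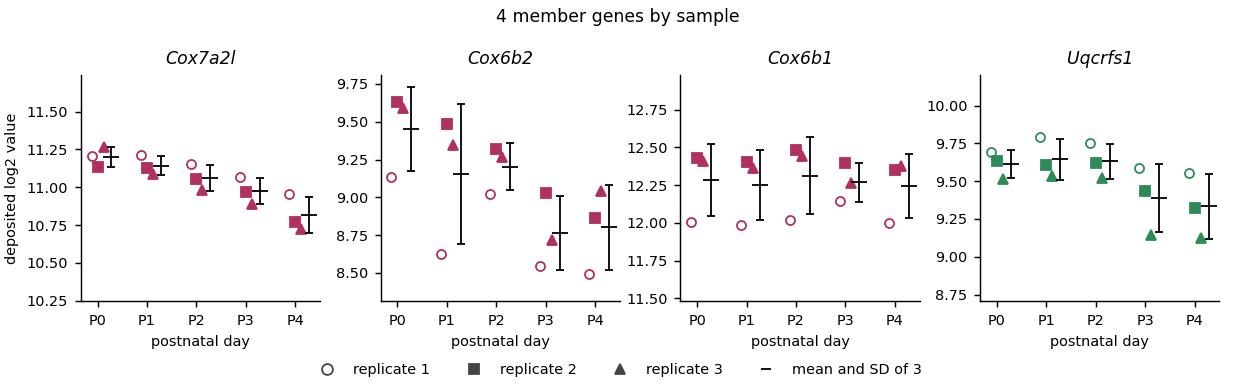
Deposited log2 values (vertical, each panel spanning 1.5 log2 units) by postnatal day (horizontal) of Cox7a2l, Cox6b2, Cox6b1 and Uqcrfs1, with a point per sample and the mean and SD of 3 beside them. Cox7a2l steps down on every day to 10.82 at P4, Cox6b2 lies lower at P3 and P4 than at P0, and Cox6b1 keeps the same level with its first replicates lowest.

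Other isoform pairs of complex IV showed no call in either fit. Cox4i1, the common form of subunit 4, differed by 0.06 between P4 and cap mesenchyme, and Cox4i2, known as the lung and low-oxygen form, by 0.15 (SE 0.10, limma adjusted p 0.618). Cox6a1, the liver-type form, differed by 0.10, and Cox6a2, the heart and muscle form, by -0.04. Cox8a differed by -0.14, and Cox8c, known from testis, by 0.15. Cox8c averaged 6.79 over all arrays, under the median of all values (6.86), though it passed the filter. The 4 members under the filter were Cox7a1 and Cox8b, heart and muscle forms, at 6.25 to 6.84 and 6.08 to 6.47 over all 15 arrays, Cox7b2, a paralog of Cox7b, at 4.10 to 5.28, and Ndufa4l2, a paralog of Ndufa4 known from low oxygen, at 5.85 to 6.35. All of these values lie under the median of all values, and no difference was tested for them.

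Complex V had a level of 0.00 ± 0.23, -0.01 ± 0.21, 0.05 ± 0.21, -0.02 ± 0.14 and -0.02 ± 0.18 from P0 to P4, and none of its 17 genes passed, with 11 negative and 6 positive. Its highest and lowest members are paralogs. Atp5g1, Atp5g2 and Atp5g3 encode the same mature subunit c, which forms the rotating ring. Atp5g2 read 10.29, 10.89 and 10.90 in P4 and 10.01 to 10.79 in cap mesenchyme, a difference of 0.23 (SE 0.21, limma adjusted p 0.782). With the sets blocked its SE was 0.07 and its adjusted p 0.056. Its other 2 probe sets gave 0.15 and 0.26. Atp5g1 read 8.61, 9.19 and 9.47 in P4 and 8.91 to 9.63 in cap mesenchyme, a difference of -0.25 (SE 0.17, adjusted p 0.619, and 0.0839 with the block), and its other probe set gave -0.23. Atp5g3 lay between them at -0.13 (adjusted p 0.755). The difference between the paralogs was not tested.

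**Figure D5:**
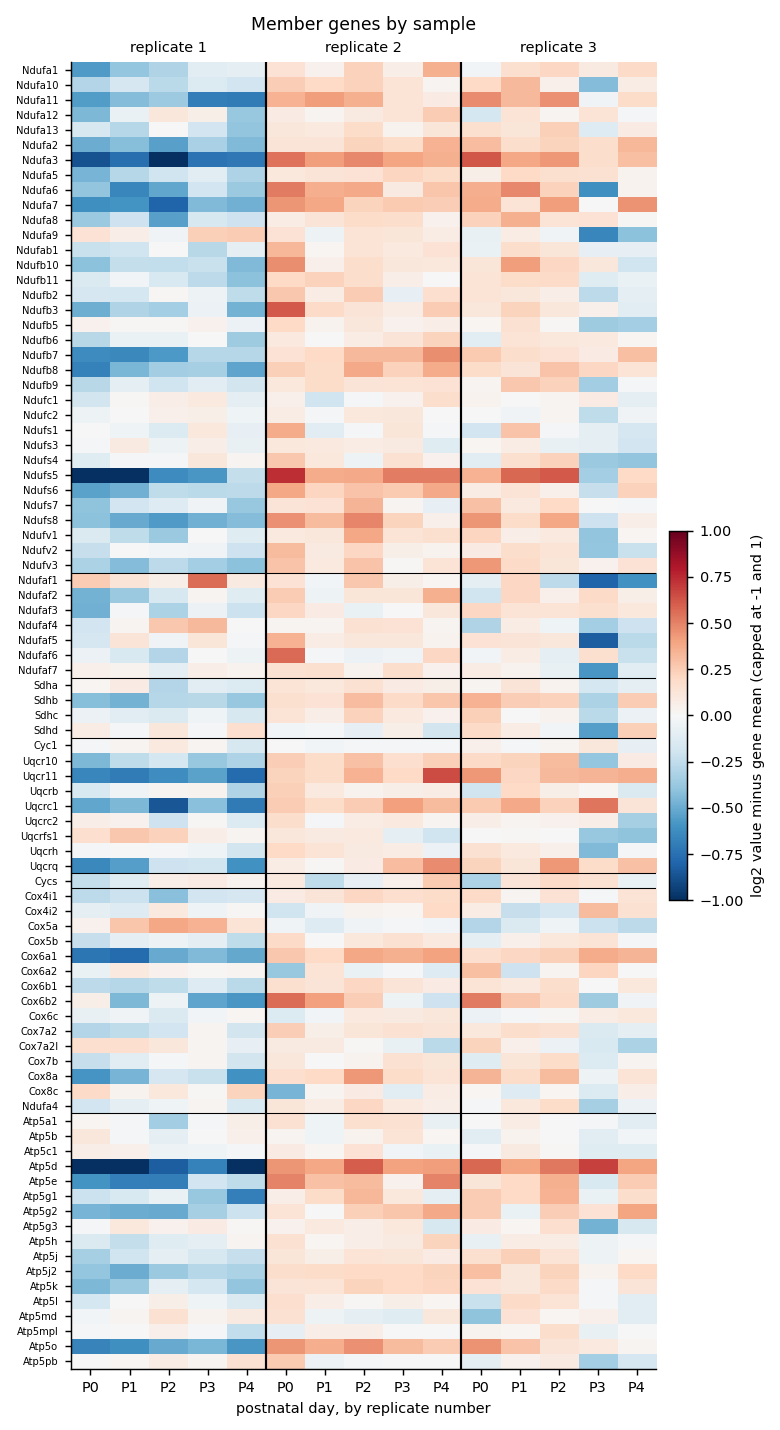
Rows are the 87 tested members by complex and columns the 15 samples, ordered by replicate number and within it by day, with colour for the log2 value minus the gene's mean. The first 5 columns, the first replicates, are mostly blue with Atp5d, Ndufa3 and Ndufs5 the darkest, and within each block the columns of P0 to P4 look alike, apart from P3 replicate 3.

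The machinery around the chain was described by further lists. Of 43 tested assembly and support factors of the complexes 0 passed in P4 against cap mesenchyme, where 5.73% of all genes did. With the sets blocked 1 rose and 1 fell, where 6.41% of all genes rose and 5.06% fell. Uqcc2 rose (0.62, limma adjusted p 0.00128) and Uqcc3 fell (-0.41, adjusted p 0.0404), both of which act in complex III assembly. Mitochondrial ribosomal proteins, which translate the subunits encoded in mitochondria, gave 0 of 77 with a median of -0.05. With the sets blocked 1 of them rose and 3 fell in P4, where 6.41% of all genes rose and 5.06% fell. In the slope 1 of them fell, where 3.9% of all genes did. Cytosolic ribosomal proteins gave 0 of 57 in either fit, with a median of -0.05. Of the mitochondrial genome only ND3 and COX2 were tested, with P4 differences of -0.06 and -0.03.

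Among 26 regulators of mitochondrial biogenesis 2 rose in P4, where 3.41% of all genes did, and 0 passed in the slope. The median P4 difference of the list was -0.12. With the sets blocked 3 rose in P4 (6.41% of all genes did), now also Nrip1, a corepressor of nuclear receptors (0.30, limma adjusted p 0.0312). In the slope 2 rose, Ppargc1b (0.19 per day, limma adjusted p 0.00807) and Nrf1 (0.14 per day, adjusted p 0.0164), where 7.72% of all genes passed in either direction. Esrrg, an orphan nuclear receptor that drives oxidative genes, averaged 7.66 ± 0.07 in P4 (n = 3) and 7.04 ± 0.17 in cap mesenchyme (SD, n = 12), a difference of 0.62 (SE 0.09, limma adjusted p 0.000378). Ppargc1a, the coactivator PGC-1alpha, averaged 8.10 ± 0.30 in P4 and 7.21 ± 0.46 in cap mesenchyme, a difference of 0.89 (SE 0.22, adjusted p 0.0273). It lay at 6.75 at P3, under the median of all values (6.86), and P4 was higher than P3 by 1.35 (SE 0.28, adjusted p 0.0248). Nrf1 and Gabpa, whose products read the motifs shown above, differed by 0.07 and -0.24 in P4 with no block (adjusted p 0.904 and 0.333). Proximal tubule markers also rose in P4, 3 of the 8 tested. Over all 12 markers of that list on the array, also those under the filter, the mean level was 6.82 to 6.96 in P4 and 6.48 to 6.81 in cap mesenchyme. The part of proximal tubule cells in the rises of Esrrg and Ppargc1a was not tested.

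Some glycolysis genes fell over the days. Of 19 tested genes of glycolysis and lactate handling, 5 fell in the slope from P0 to P3, where 3.13% of all genes passed in either direction. They were Pdk1, a kinase that inhibits pyruvate dehydrogenase (-0.51 per day, SE 0.07, limma adjusted p 0.00139), Aldoa (-0.27, adjusted p 0.00409) and Pfkl (-0.26, adjusted p 0.00663), enzymes of upper glycolysis, Ldha, a lactate dehydrogenase (-0.24, adjusted p 0.0324), and Slc16a1, a lactate and pyruvate carrier (-0.22, adjusted p 0.0384). Day means of Pdk1 were 8.25, 7.64, 7.24, 6.69 and 6.38 from P0 to P4, with those of P3 and P4 under the median of all values (6.86). In P4 against cap mesenchyme Pdk1 and Slc16a1 fell, by 1.08 and by 0.94 on the log2 scale, and Ldhb rose by 0.75 (adjusted p 0.00117). With the sets blocked 8 of the 19 fell in the slope, now also Tpi1, Slc16a3 and Pfkm, where 3.9% of all genes fell. In that fit 5 fell in P4, now also Ldha, Aldoa and Pfkm, where 5.06% of all genes fell, while Ldhb rose. No test set the glycolysis genes against the respiratory chain genes, so a difference between the lists is not shown.

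Of 17 genes of the citric acid cycle and pyruvate entry 1 fell in P4, where 2.32% of all genes did. It was Suclg2, a subunit of the GTP-forming succinate-CoA ligase (-0.64, SE 0.12, limma adjusted p 0.00403). In the slope from P0 to P3, 1 fell, where 3.13% of all genes passed in either direction. This was Pdhb, a subunit of pyruvate dehydrogenase (-0.18 per day, adjusted p 0.0389). Pdhb was higher by 0.34 in P4 than in P3 with an adjusted p of 0.533. Among 19 genes of side paths for protons and electrons 1 fell in P4, where 2.32% of all genes did. It was Prdx3, a mitochondrial peroxidase (-0.68, SE 0.19, limma adjusted p 0.0498). With the sets blocked 2 fell in P4, where 5.06% of all genes did, now also Slc25a4, an exchanger of ADP and ATP (-0.27, adjusted p 0.0183). In that fit 1 fell in the slope, where 3.9% of all genes did. This was Etfdh, which passes electrons to ubiquinone (-0.18 per day, adjusted p 0.0482).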

How the data were processed

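The authors deposited 1 table of log2 values for 35557 probe sets in 15 samples. Per the labels it came from Affymetrix Expression Console, whose version, summarization and centring of values were not given in the sources used here. Amplification took 1 round with the WT-Ovation Pico kit. Values were used as deposited. The platform table gave 21789 probe sets 1 symbol, 1621 several and 12147 none, and those without a single symbol were not used. Of 118 member probe sets 27 were not the brightest of their gene and were not used. In 26 of these the P4 difference had the sign of the one used. Ndufb4 and Cox7c had no probe set with a single symbol, so they are not members and entered no comparison. The probe sets they share with other genes are only described at the end.

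In limma 3.58.1 (R 4.3.3) a mean for each day was fitted to all samples, followed by eBayes and Benjamini-Hochberg adjustment over 11885 genes, two-sided. The fit with no block was checked on simulated data with independent noise in each array and no array sets. That check therefore does not cover the set difference of these arrays. Same-numbered samples deviated together in 18 of 18 pairs among P0 to P3 (lowest r 0.138) and in 29 of 30 over all days (lowest 0.0782). The first replicate carries no number in its title and was taken as 1. Named members are those that passed in any comparison, the highest and lowest of each complex in P4, paralog isoforms and, where none passed, the 3 with the smallest p. Of other lists up to 4 with the smallest p are named. Members and lists were chosen with earlier results of these data known. Genes named for the array sets, calls of other lists with these blocked, P3 replicate 3, the promoters or the factors that read the motifs were chosen after their values or letters were seen.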

Additional observations from a re-analysis of the deposited data

How the results depend on the processing

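Counts of members called stayed at 0 when any 1 sample was left out, with median centring, with no filter and with the mean of a gene's probe sets. With the replicate number as a block the members called numbered 3 in P4 against cap mesenchyme (Cox7a2l, Cox6b2 and Uqcrfs1), 1 in the slope, 1 in P3 against P0 and 1 in the F test, and all genes 1435, 1009, 770 and 1483, with 422 in P4 against P3. With the sets of arrays blocked the members numbered 2, 1, 1 and 2, and all genes 1363, 918, 716 and 1386, with 398 in P4 against P3. Within replicates 2 and 3 the members numbered 1 in the slope, 1 in P3 against P0 and 1 in the F test, and after quantile normalization 1 in P3 against P0. With genes required above the median in all 15 arrays, fewer genes were tested, and all genes called were 371 in P4 against cap mesenchyme, 208 in the slope, 68 in P4 against P3, 140 in P3 against P0 and 370 in the F test, where the first filter gave 681, 372, 177, 259 and 638. Leaving out 1 sample gave 417 (without P4 replicate 2) to 770 (without P3 replicate 3), 183 (without P0 replicate 3) to 381, 99 (without P4 replicate 3) to 187, 121 (without P0 replicate 3) to 261, and 462 to 653. Leaving out samples in the blocked fit and rescaling the set difference were chosen after seeing the data. In the blocked P4 comparison this gave 0 members without P4 replicate 2 and 5 without P3 replicate 3. The cause of these shifts was not tested. The number of arrays, 3 a day, limits the precision.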

Other observations

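Probe sets that name a member together with another gene entered no comparison. The 3 that name Cox7c, a small subunit of complex IV, with Gm12338 had day means between 12.30 and 12.58 and P4 differences of 0.04, 0.05 and 0.05 from cap mesenchyme. The 2 that name Ndufb4 with Ndufb4b differed by -0.15 and -0.11, and the one that names Ndufs5 with Ndufs5-ps by 0.06. In none of these 6 did P4 lie apart from cap mesenchyme samples.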
